A study of Mus musculus with 4 samples.

Results

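The cholesterol group comprised 29 genes taken from a list of names, with no threshold on their values: 17 enzymes of synthesis, 3 genes of sterol sensing, 2 receptors for uptake, 2 genes of transport within the cell, 2 of ester synthesis and hydrolysis, and 3 of export. The list was chosen with earlier results of these data known. All 29 were found in the deposited table, each on 1 row, among 44509 gene symbols. All 29 passed the filter on low values, which required 1 FPKM in 2 or more libraries and left 19837 genes. FPKM is the fragment count per kilobase of gene, scaled to the library's mapped fragments. It is a share of a library, so a gene's FPKM also moves when other genes take more or less of that library. The libraries were made from total RNA of mouse testis, 2 from a busulfan model of oligozoospermia and 2 from the same model given Cus-1, a resin glycoside obtained from a cuscutae extract. Both groups therefore carry the busulfan injury, an alkylating damage that depletes dividing germ cells, and they differ in Cus-1. Strain, age, dose, time and route are not in the labels, and the extraction protocol speaks of tissue per group without saying whether animals were pooled or separate, so p-values measure only the spread between these libraries, which may be partly technical. The sample titles (BPA and CUS2) do not match the treatment named in the source labels. The treatment field naming CUS is the same for all 4 samples, and the grouping rests on the source labels.

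Cells make cholesterol from acetyl-CoA. The early steps run through mevalonate to farnesyl diphosphate and also feed other isoprenoids, and the later steps close squalene into a sterol ring and trim it to cholesterol. When membrane sterol is low, the SREBP2 protein is escorted by SCAP from the endoplasmic reticulum, is cut, and switches on the genes of synthesis, while INSIG1 holds it back when sterol is plentiful. In the testis, Leydig cells turn cholesterol into androgens and keep a stock of esters, Sertoli cells take up and export the sterol left by shed cytoplasm and dying germ cells, and germ cells make sterol intermediates of their own, for which Cyp51 is known.

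The early and later enzymes that had a promoter entry share a feature of sequence that was not used to choose them. The CCAAT box, the site of the factor NF-Y that acts beside SREBP, was searched as CCAAT on both strands in the 250 bases before each annotated start (RefSeq, GRCm38.p6). Of the 17 enzymes 14 had an entry, and 14 of these 14 held the motif upstream of at least 1 start, against 37.5% of 27025 genes. Counted by start, 14 of 17 windows held it, against 33.8% of all 32851 windows. Of the 8 other members with an entry, 3 held it (Insig1, Srebf2 and Soat1) and 5 did not (Scap, Lrp1, Lipe, Abca1 and Apoe). A sterol regulatory element, the SREBP site, was searched as TCACNCCAC on both strands. It was matched in Hmgcs1 alone among the 22 members with an entry, and in 1.22% of all genes. Members without an entry were not searched. The GC box GGGCGG was in 13 of the 14 enzymes and in 35.4% of all genes, and the cAMP response element TGACGTCA was in 0 of 22 members and in 1.77% of all genes. The shares over all genes were not matched for base content. Exons of another gene lie in the windows of Mvk, Nsdhl, Tm7sf2, Idi1 and Hsd17b7, so a match there may not belong to the enzyme alone. A match describes the letters of the window and does not show that a factor binds there. No match says only that these letters are not in the window.

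The windows below, 5′ to 3′ on the strand of each gene, show early enzymes (Hmgcs1 and Mvd), later enzymes (Ebp and Sc5d) and, for contrast, the exporter Abca1, the member with the largest group difference. Capitals mark CCAAT in either orientation and, in Hmgcs1, also the sterol regulatory element. They lie at chr13:119690101-119690350 (plus strand), chr8:122443423-122443672 (minus), chrX:8193513-8193762 (minus), chr9:42264301-42264550 (minus) and chr4:53159896-53160145 (minus) in GRCm38, outside annotated exons.
Hmgcs1: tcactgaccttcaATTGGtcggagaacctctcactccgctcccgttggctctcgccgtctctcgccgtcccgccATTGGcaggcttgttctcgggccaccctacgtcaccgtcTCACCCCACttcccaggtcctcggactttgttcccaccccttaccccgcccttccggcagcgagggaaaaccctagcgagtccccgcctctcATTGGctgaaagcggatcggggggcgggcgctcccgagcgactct
Mvd: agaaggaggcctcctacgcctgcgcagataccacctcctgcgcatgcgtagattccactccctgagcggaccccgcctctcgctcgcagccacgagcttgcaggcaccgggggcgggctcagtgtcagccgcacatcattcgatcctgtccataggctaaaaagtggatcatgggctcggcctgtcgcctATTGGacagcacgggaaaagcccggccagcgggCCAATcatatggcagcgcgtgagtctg
Ebp: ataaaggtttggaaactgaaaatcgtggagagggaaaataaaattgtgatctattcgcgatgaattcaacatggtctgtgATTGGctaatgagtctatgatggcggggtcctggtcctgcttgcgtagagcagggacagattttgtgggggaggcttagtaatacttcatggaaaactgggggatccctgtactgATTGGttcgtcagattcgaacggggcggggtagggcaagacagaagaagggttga
Sc5d: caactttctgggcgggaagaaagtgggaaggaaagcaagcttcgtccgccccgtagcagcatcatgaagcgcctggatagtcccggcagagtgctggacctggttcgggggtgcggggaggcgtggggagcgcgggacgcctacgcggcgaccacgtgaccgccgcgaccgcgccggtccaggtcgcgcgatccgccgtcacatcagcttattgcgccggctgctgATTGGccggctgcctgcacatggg
Abca1: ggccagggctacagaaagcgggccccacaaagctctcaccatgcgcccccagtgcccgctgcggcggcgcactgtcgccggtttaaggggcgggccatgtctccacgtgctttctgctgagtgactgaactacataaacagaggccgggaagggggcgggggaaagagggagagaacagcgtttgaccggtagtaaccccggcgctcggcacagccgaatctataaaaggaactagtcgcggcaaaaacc
In Hmgcs1 the sterol regulatory element TCACCCCAC starts 137 bases before the start site and lies between CCAAT boxes that begin 176 and 45 bases before it. Ebp has its boxes 170 and 55 bases before the start and Mvd 60 and 27. The single box of Sc5d begins 24 bases before the start.

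The low values put the depth at about 12.6 to 14 M fragments a library, if the lowest common step in the values is 1 fragment. Across genes the log2 values of busulfan 2 were as close to Cus-1 library 2 (Pearson r = 0.961) as to busulfan 1 (r = 0.961), and busulfan 1 and Cus-1 library 1 were the farthest apart (r = 0.889). Cell markers differed between the groups as well. The summed level of 12 Sertoli markers was 5721 and 4163 FPKM under busulfan against 2705 and 3322 under Cus-1, and that of 10 Leydig markers 27481 and 27054 against 13399 and 19758. Clu supplied most of the Sertoli sum, at 3873 and 2613 FPKM against 1783 and 2235. Insl3 supplied most of the Leydig sum, and the sum of the other 9 overlapped between the groups, at 4533 and 6576 FPKM against 3134 and 5157. The 10 macrophage markers summed to 794 and 632 FPKM against 373 and 549, and the 10 spermatid markers to 3098 and 3210 against 11594 and 4198. The 10 spermatocyte markers summed to 1853 and 2697 FPKM against 4557 and 3875. Cus-1 values lay below the busulfan values without overlap for 12 of 12 Sertoli, 6 of 10 Leydig and 8 of 10 macrophage markers. The same held for 5 of 6 endothelial but only 1 of 6 peritubular markers, and for 31.7% of all tested genes. The remaining markers of these lists overlapped. All 10 spermatid and all 10 spermatocyte markers had Cus-1 values above the busulfan values without overlap, against 36.6% of all tested genes. The epididymis markers Adam7 and Crisp1 reached no more than 0.04 and 0.27 FPKM, and Adam7 was listed at 0 in 3 libraries. Of the fat markers, Fabp4 was at 7.68 and 7.29 FPKM against 1.44 and 2.47, Plin1 at 4.17 and 11.6 against 3.42 and 6.8, and Adipoq at 0.77 and 1.26 against 0.97 and 0.44. In bulk RNA of this kind, fewer cells of a type and less RNA per cell cannot be told apart, and the part of this mixture in the differences that follow was not tested.

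Most cholesterol genes had lower levels with Cus-1. Because the list was chosen with earlier results of these data known, the shares given here describe the members and do not test the group. On log2(FPKM + 1), the difference of Cus-1 minus busulfan was negative for 26 of the 29 genes, with a median of -0.48 against 0.04 for all tested genes. Both Cus-1 libraries lay below both busulfan libraries for 18 members (62.1%, against 31.7% of all tested genes) and above them for 1 (36.6% of all tested genes). No member passed the adjusted limma threshold of 0.05 (smallest adjusted p = 0.152), nor did any gene in the table (0%). At an unadjusted limma p under 0.05, 9 members were lower (31.0%, against 9.96% of all tested genes) and 0 were higher (18.0% of all tested genes). These 9 were Hmgcs1, Pmvk, Tm7sf2, Nsdhl, Ebp, Lrp1, Soat1, Abca1 and Abcg1. The count was 4 without busulfan 1, 4 without busulfan 2, 2 without Cus-1 library 1 and 13 without Cus-1 library 2. Directions here are on the deposited scale: centred on the Sertoli markers, the median of the members was 0.21, below the 0.74 of all genes, and centred on the Leydig markers it was 0.04, below 0.56.

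**Figure D1:**
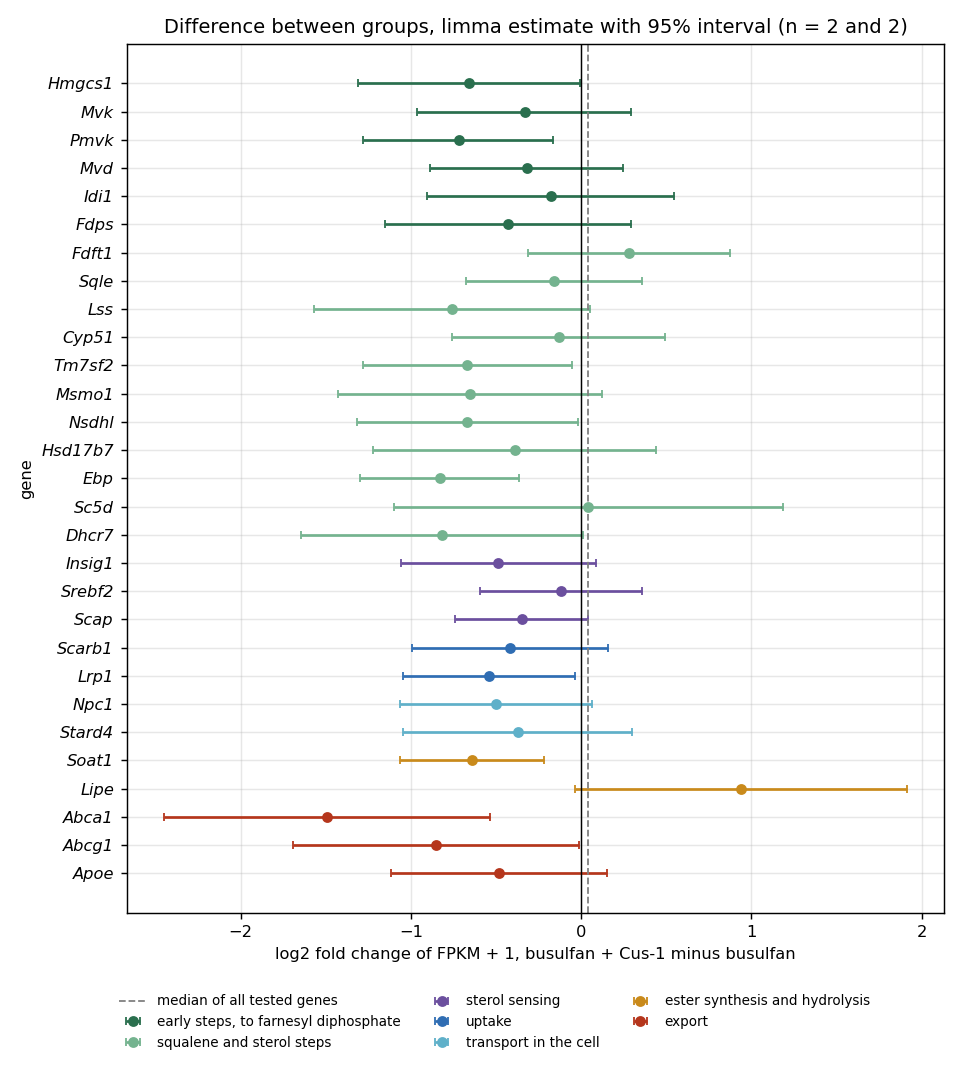
Log2 fold change of FPKM + 1 (busulfan with Cus-1 minus busulfan) for the 29 members, colored by role, with limma 95% intervals (2 libraries a group); the dashed line is the median of all tested genes, 0.04. On this scale 26 of the 29 points lie below 0, Abca1 is the lowest at -1.49 and Lipe the highest at 0.94, whereas after centring on the Sertoli markers 20 of the 29 change sign.

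Of the 6 early enzymes, 3 were lower in each Cus-1 library than in either busulfan library, namely Hmgcs1, Pmvk and Mvd (50%, against 31.7% of all tested genes). Hmgcs1, which makes HMG-CoA, had 138 and 222 FPKM in the busulfan libraries against 111 and 111 after Cus-1 (log2 difference -0.66, SE 0.25, adjusted p = 0.177). The Cus-1 libraries were nearly equal, while busulfan 2 was well above busulfan 1, and the difference was -0.32 without busulfan 2. Pmvk, the phosphomevalonate kinase, was at 17.4 and 19.6 FPKM against 9.18 and 12.7 (-0.72, SE 0.22, adjusted p = 0.152), with no overlap between groups. Fdps, which joins isoprenoid units into farnesyl diphosphate and was the most abundant enzyme of the pathway, was at 188 and 262 FPKM against 133 and 203 (-0.43, SE 0.28, adjusted p = 0.329). Its Cus-1 library 2 lay above busulfan 1, so the groups overlapped, and without Cus-1 library 1 the difference was -0.13. The mevalonate kinase Mvk, the decarboxylase Mvd and the isomerase Idi1 had smaller differences of -0.33, -0.32 and -0.18. Mvd alone of these kept the groups apart, narrowly, with 10.4 and 12.8 FPKM against 7.91 and 10.2. Idi1 was at 0.18 without busulfan 2.

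**Figure D2:**
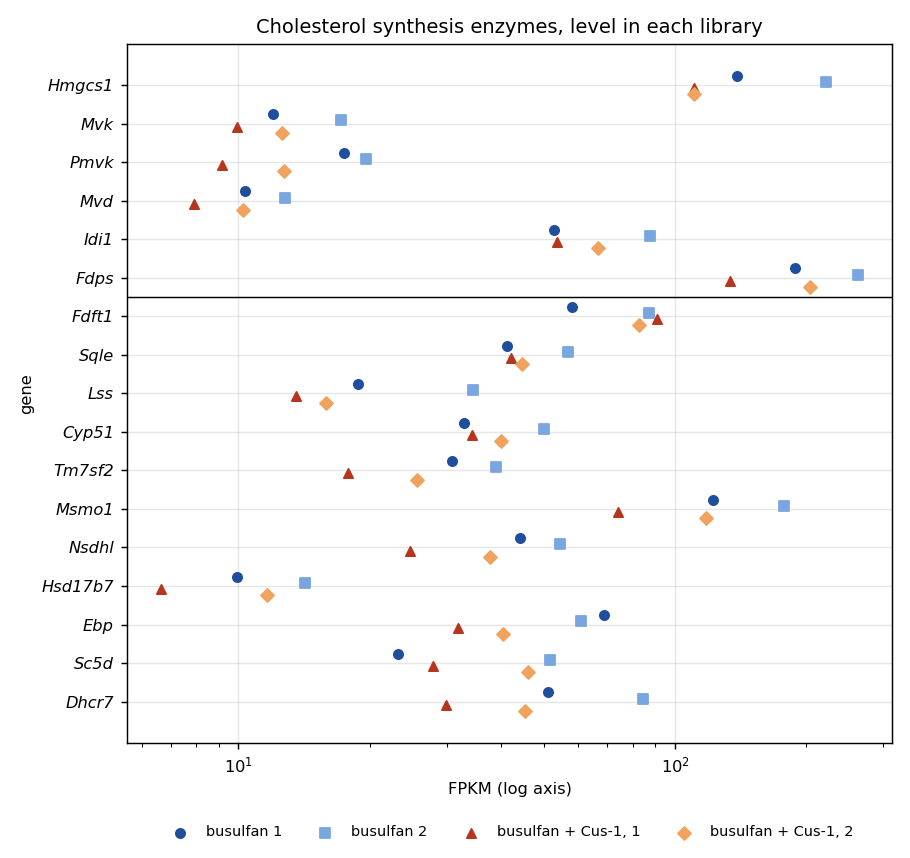
FPKM (log axis) of the 17 synthesis enzymes in each library, early steps above the line and squalene and sterol steps below it. The busulfan squares (library 2) lie to the right of the busulfan circles (library 1) for 16 of the 17 genes. The groups are apart, with both Cus-1 libraries lower, for 9 of the 17 (52.9%, against 31.7% of all tested genes).

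Of the 11 later enzymes, 6 were lower without overlap (Lss, Tm7sf2, Msmo1, Nsdhl, Ebp and Dhcr7), which is 54.55%, against 31.7% of all tested genes. Ebp, the sterol isomerase encoded on chromosome X (8185329 to 8193512, mm10), had the smallest unadjusted p of all members and was at 68.6 and 60.8 FPKM in the busulfan libraries and 31.8 and 40.4 after Cus-1 (-0.83, SE 0.18, adjusted p = 0.152). Its difference stayed between -1.0 and -0.66 when any 1 library was left out. Tm7sf2, a sterol reductase that forms the testis meiosis-activating sterol, was at 30.8 and 38.8 FPKM against 17.8 and 25.6 (-0.67, SE 0.24, adjusted p = 0.167). Its exons overlap those of Vps51 on the same strand, which was at 18.5 and 21.1 FPKM against 20.7 and 20.3. Nsdhl and Msmo1 act together in removing methyl groups from the ring. Nsdhl was at 44.1 and 54.5 FPKM against 24.7 and 37.7 (-0.67, SE 0.25, adjusted p = 0.174). Msmo1, the most abundant later enzyme, was at 122 and 178 against 74.2 and 118 (-0.65, SE 0.30, adjusted p = 0.214), where Cus-1 library 2 came close to busulfan 1. Without Cus-1 library 1 the differences were -0.42 for Tm7sf2, -0.37 for Nsdhl and -0.32 for Msmo1, and without busulfan 2 that of Msmo1 was -0.38. Lss, which closes the ring, and Dhcr7, the reductase of the last step, were named after their values were seen. Lss was at 18.8 and 34.5 FPKM against 13.6 and 15.8 (-0.76, SE 0.31), and Dhcr7 at 51.1 and 84.5 against 29.9 and 45.4 (-0.82, SE 0.32). In both genes busulfan 2 was far above the other libraries, and without it the differences were -0.34 and -0.46.

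The other later enzymes overlapped between the groups. Fdft1, the squalene synthase that commits the pathway to sterols, was at 58.2 and 87.0 FPKM without Cus-1 and 91.0 and 82.5 when it was given (0.28, SE 0.23, adjusted p = 0.421), and at -0.0054 without busulfan 1. Exons of Fdft1 overlap those of Ctsb on the other strand, and Ctsb was lower after Cus-1, with 350 and 323 FPKM against 159 and 279. Since the strand setting of the counting is not given, reads of the pair cannot be told apart. Cyp51, the demethylase whose product is a meiosis-activating sterol, was at 32.9 and 50.1 FPKM against 34.3 and 39.9 (-0.13, 95% interval -0.76 to 0.49). Both Cus-1 values lay between the busulfan values. The epoxidase Sqle (-0.16), the reductase Hsd17b7 (-0.39) and the desaturase Sc5d (0.04, 95% interval -1.10 to 1.19) also overlapped. Sc5d had the highest ratio of busulfan 2 to busulfan 1 among the members, 2.24, and was at 23.2 and 51.8 FPKM under busulfan against 27.9 and 45.98 under Cus-1.

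The differences of early and later steps overlapped. The median log2 fold change was -0.38 for the 6 early enzymes and -0.65 for the 11 later ones (-0.66 without Cyp51), but the early range, -0.72 to -0.18, lay inside the later range, -0.83 to 0.28. Summed over enzymes, the early to later FPKM ratio was 0.836 and 0.873 with busulfan and 0.825 and 0.820 with Cus-1. All 17 enzymes together summed to 920 and 1332 FPKM against 719 and 923, so Cus-1 library 2 reached the level of busulfan 1. Of the 17, 9 were lower without overlap (52.9%, against 31.7% of all tested genes) and 8 overlapped.

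Most synthesis enzymes were higher in library 2 of each group than in library 1. Busulfan 2 exceeded busulfan 1 for 16 of the 17, the exception being Ebp, and Cus-1 library 2 exceeded library 1 for 15, the exceptions being Hmgcs1 and Fdft1. Both held for 14 enzymes (82.4%), against 18.4% of all tested genes. The labels do not pair libraries across the groups, so these joint shares depend on how the libraries were numbered. For the 17 enzymes the median difference between the libraries was 0.48 (busulfan 2 minus 1) and 0.34 (Cus-1 library 2 minus 1) on the log2 scale. Sertoli markers had -0.38 and 0.16, and spermatid markers 0.31 and -1.42. The 10 Leydig markers had 0.25 and 0.60, with 7 higher in busulfan 2 than in busulfan 1 and 10 higher in Cus-1 library 2 than in library 1. The ratio of summed synthesis FPKM to the Sertoli sum, most of which is Clu, was 0.161 and 0.320 against 0.266 and 0.278. A part of Leydig cells in the level of the enzymes was not tested.

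**Figure D3:**
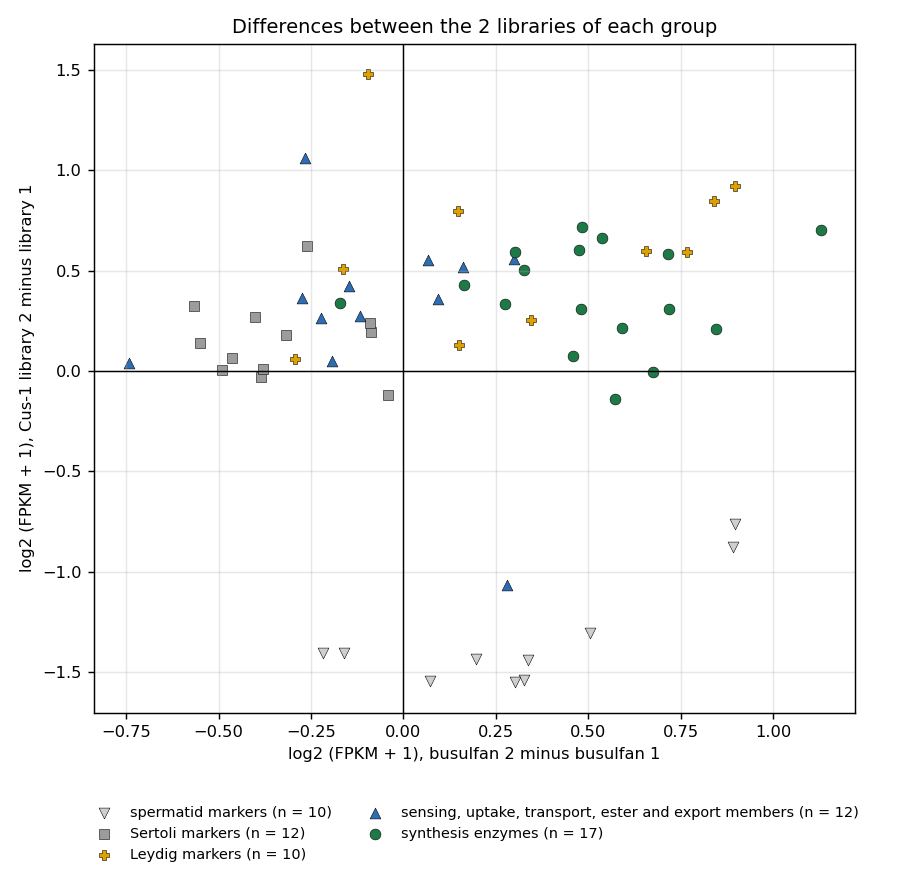
Difference in log2(FPKM + 1) between the libraries of a group, busulfan on the x axis and Cus-1 on the y axis, 1 point per gene, for the members and for marker genes of Leydig, Sertoli and spermatid cells. Above 0 on both axes are 14 of the 17 synthesis enzymes, while none of the 12 Sertoli markers lies above 0 on the x axis. The sign on each axis follows the numbering of the libraries, which pairs nothing across the groups.

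Of the 3 genes of sterol sensing, 2 were lower without overlap (66.7%, against 31.7% of all tested genes) and Srebf2 overlapped. Insig1, the retention factor, was at 35.7 and 40.1 FPKM in the busulfan libraries and 22.2 and 32.2 after Cus-1 (-0.49, SE 0.22, adjusted p = 0.211), and -0.23 without Cus-1 library 1. Scap, the escort, was at 44.95 and 39.2 FPKM against 32.2 and 33.3 (-0.35, SE 0.15, adjusted p = 0.200). Srebf2, which encodes SREBP2 itself, overlapped, with a difference of -0.12 (95% interval -0.60 to 0.36).

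Both uptake receptors were lower in both Cus-1 libraries, as were 31.7% of all tested genes. Scarb1, the HDL receptor that brings cholesteryl ester into Leydig cells and also binds phosphatidylserine on Sertoli cells, was at 146 and 153 FPKM without Cus-1 and 92.3 and 136 when it was given (-0.42, SE 0.22, adjusted p = 0.256). The busulfan libraries agreed closely, and the difference was -0.14 without Cus-1 library 1. Lrp1, a large receptor for lipoprotein remnants, was at 79.6 and 71.8 FPKM against 44.4 and 59.9 (-0.54, SE 0.20, adjusted p = 0.168), and its difference was -0.33 without Cus-1 library 1. Inside the cell, Npc1, which releases cholesterol from lysosomes, was at 8.45 and 7.10 FPKM against 4.65 and 5.78 (-0.50, SE 0.22, adjusted p = 0.202). Its exons overlap the antisense gene Rmc1. Stard4, a soluble sterol carrier, overlapped between groups at 11.5 and 14.3 FPKM against 7.80 and 12.0 (-0.37, SE 0.26).

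Soat1 and Lipe, the members of ester synthesis and ester hydrolysis, differed in opposite directions. This did not hold for ester hydrolysis in general. The cholesteryl ester hydrolases Nceh1 and Lipa, which are not members, were lower without overlap (-0.66 and -0.7), in the direction of Soat1. Soat1, which esterifies cholesterol for storage in droplets, was at 84.0 and 77.4 FPKM under busulfan against 46.6 and 56.6 under Cus-1 (-0.64, SE 0.16, adjusted p = 0.152). The libraries of each group were close and the groups far apart. Lipe encodes hormone-sensitive lipase, which hydrolyses cholesteryl esters in Leydig cells and has a longer form in germ cells, where its loss makes male mice infertile. It was at 14.1 and 17.3 FPKM against 45.03 and 21.0 (0.94, SE 0.38, adjusted p = 0.184), and was the 1 member higher in both Cus-1 libraries. Cus-1 library 1 supplied most of that difference, which was 0.41 without it and 1.47 without library 2. The ratio of Soat1 to Lipe was 5.98 and 4.48 with busulfan and 1.04 and 2.70 with Cus-1. The ratio of Lipe to the summed spermatid markers was 0.00454 and 0.00538 against 0.00388 and 0.00500, overlapping between the groups. The table gives 1 value per gene, so the forms of Lipe cannot be told apart, and the part of spermatids, or of fat (the Fabp4 and Plin1 values above), in its level was not tested. The antisense neighbour 4732471J01Rik, whose exons overlap those of Lipe, was at 2.32 and 4.81 FPKM against 5.06 and 4.82.

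Export genes held the largest difference of the group. Abca1, the transporter that loads cellular cholesterol onto apolipoproteins, on chromosome 4 (53030787 to 53159895, mm10), was at 98.9 and 82.0 FPKM in the busulfan libraries and 21.4 and 45.7 after Cus-1. Its mean with Cus-1 was 0.371 times that with busulfan (log2 difference -1.49, SE 0.37, adjusted p = 0.152). Only 0.444% of the tested genes had a lower log2 fold change. The difference was -0.97 without Cus-1 library 1 and -2.02 without library 2. The ratio of Abca1 to the macrophage markers was 0.125 and 0.130 against 0.0574 and 0.0831. Its ratio to the Sertoli sum, most of which is Clu, was 0.0173 and 0.0197 against 0.00791 and 0.0137. Among single macrophage markers, the ratio of the Cus-1 mean to the busulfan mean was lowest for Cx3cr1 (0.327) and Cd163 (0.379). The other macrophage markers ran from 0.509 (Adgre1) to 0.726 (Cd68), above the 0.371 of Abca1. The part of macrophages in the Abca1 difference was not tested. Centred on the Leydig markers, Abca1 was at -0.97 and was the 1 member with an unadjusted limma p under 0.05 in the lower direction. Centred on the Sertoli markers, Abca1 was at -0.80, and 0 members were lower at that threshold. Abcg1, which passes sterol to HDL, was near the lower limit of the filter at 3.79 and 1.86 FPKM against 1.02 and 1.08 (-0.85, SE 0.33, adjusted p = 0.177), with -0.48 without busulfan 1. At the estimated depth its values in Cus-1 libraries 1 and 2 correspond to about 83 and 79 fragments over the longest annotated transcript. Apoe, the apolipoprotein made by macrophages and other somatic cells, was the most abundant member at 1823 and 1506 FPKM against 1044 and 1343 (-0.48, SE 0.25, adjusted p = 0.238), again without overlap, and with -0.30 when Cus-1 library 1 was left out.

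**Figure D4:**
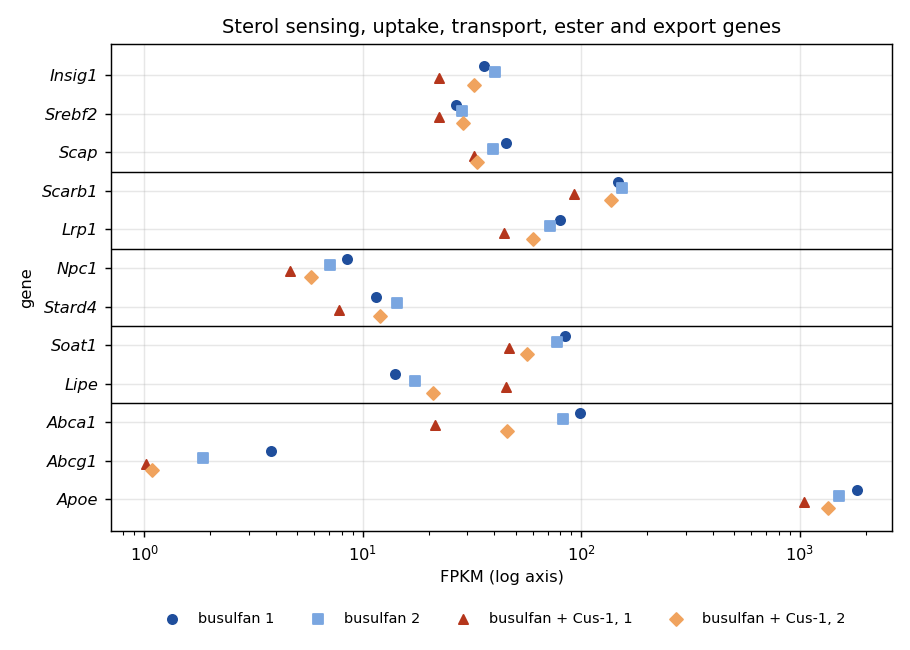
FPKM (log axis) of the 12 members of sterol sensing, uptake, transport, ester metabolism and export in each library, with lines between roles. The Cus-1 symbols lie to the left of the busulfan symbols for 9 genes (75%, against 31.7% of all tested genes). They lie to the right for Lipe (8.33%, against 36.6%) and overlap for Srebf2 and Stard4.

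Sterol genes outside the 29 lay on both sides. Of 35 such genes, 31 were tested, with a median of -0.30. Without overlap between the groups, 13 were lower after Cus-1 (41.9%, against 31.7% of all tested genes) and 6 higher (19.4%, against 36.6%). At an unadjusted limma p under 0.05 there were 6 lower (19.4%, against 9.96%) and 3 higher (9.68%, against 18.0%). The lower ones included Acat2, the thiolase that supplies acetoacetyl-CoA to Hmgcs1, at 55.7 and 67.4 FPKM against 29.6 and 39.7 (-0.82, SE 0.21), and Gramd1a, a carrier of membrane cholesterol, at 49.1 and 35.3 against 21.2 and 24.5 (-0.84, SE 0.21). Nceh1 and Lipa, which hydrolyse cholesteryl esters outside and inside the lysosome, had differences of -0.66 (SE 0.22) and -0.70 (SE 0.24). Mbtps1, the protease that makes the earlier cut in SREBP2, had -0.55 (SE 0.20) and the late endosome sterol protein Stard3 -0.51 (SE 0.18). Npc2, the lysosomal partner of Npc1, had -0.60 (SE 0.23). Higher levels were found for Gramd1c, at 16.7 and 24.8 FPKM against 41.9 and 34.0 (0.86, SE 0.24), for the sterol-responsive membrane protein Tmem97, at 186 and 241 against 370 and 317 (0.69, SE 0.20), and for Erlin1, which takes part in SREBP control (0.48, SE 0.15). None of these 10 genes passed the adjusted limma threshold, with adjusted p between 0.152 and 0.179. Gramd1a and Gramd1c belong to the same family and lay on opposite sides. The nuclear receptors Nr1h2 and Nr1h3, the LXR pair that switches on Abca1 and Abcg1, overlapped between groups, with differences of 0.04 (95% interval -0.39 to 0.47) and -0.06 (-0.65 to 0.52), and were named after their values were seen.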

How the data were processed

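Gene-level FPKM for 4 mouse testis libraries came from 1 table that the authors deposited. The submitters' processing notes name mm10 as the build, and the sources used here do not give the aligner, counter, annotation or strand setting. Of 45582 rows 46 were blank, and 910 without a gene name (0.641% to 0.688% of summed FPKM) were left out. Of the 29 members 10 have exons that overlap those of another gene. In 8 that gene lies on the other strand, and the unstated strand setting leaves such values uncertain. Fdps and Tm7sf2 overlap a gene on the same strand, where strand cannot separate the reads.

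Genes that reached 1 FPKM in 2 or more libraries were tested on log2(FPKM + 1) with limma 3.58.1 (R 4.3.3), with a mean-variance trend and Benjamini-Hochberg adjustment over 19837 genes. The step was tested on simulated data. Fold changes on that scale understate low genes. With 2 libraries against 2 an exact permutation test cannot go below 0.333. Depth was estimated from the first peak of FPKM times length in genes with 1 transcript. Gene positions are from GENCODE M21, promoters from RefSeq (22 of 29 members had an entry). Members, gene lists and the rule for named genes were chosen with earlier results of these data known: values in every library for the 2 most abundant members of each role and those at unadjusted p under 0.05, and up to 10 other sterol genes by smallest p. The 12 alternatives were other pseudocounts, filters, scalings and variance models, and leaving out each library.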

Additional observations from a re-analysis of the deposited data

How the results depend on the processing

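The number of members past the adjusted limma threshold was 0 in each direction under all 12 alternatives. Over all 19837 genes it was 0 as reported, where 1975 were lower and 3576 higher at an unadjusted p under 0.05, 2 centred on Sertoli markers, 1283 centred on Leydig markers and 7 without Cus-1 library 1. At an unadjusted p under 0.05, lower members numbered 6 to 12 under the other pseudocount, filters, quantile and median-of-ratios scaling, 5 without a variance trend, 0 centred on Sertoli markers, 1 centred on Leydig markers, and 2 to 13 when a library was left out. Higher members, 0 as reported, numbered 2 centred on Sertoli and 1 centred on Leydig markers, and 0 to 1 when a library was left out. The median of all members ran from -0.69 to -0.30 when a library was left out, that of the early enzymes from -0.62 to -0.17 and that of the later ones from -0.86 to -0.32. Centring on the Sertoli markers moved the median of all genes from 0.04 to 0.74 and gave medians of 0.21, 0.31 and 0.04 for all members, early and later enzymes. Centring on the Leydig markers moved it to 0.56 and gave 0.04, 0.14 and -0.13. These moves follow from the construction of the scaling. Members that changed sign on Sertoli-centred values were at Hmgcs1 0.038, Mvk 0.36, Mvd 0.37, Idi1 0.52, Fdps 0.27, Sqle 0.54, Cyp51 0.56, Tm7sf2 0.026, Msmo1 0.043, Nsdhl 0.028, Hsd17b7 0.30, Insig1 0.21, Srebf2 0.58, Scap 0.35, Scarb1 0.28, Lrp1 0.15, Npc1 0.20, Stard4 0.32, Soat1 0.055 and Apoe 0.21. Those on Leydig-centred values were at Mvk 0.19, Mvd 0.20, Idi1 0.34, Fdps 0.094, Sqle 0.37, Cyp51 0.39, Hsd17b7 0.13, Insig1 0.036, Srebf2 0.40, Scap 0.17, Scarb1 0.11, Npc1 0.023, Stard4 0.15 and Apoe 0.038. When a library was left out, Idi1 ran from -0.54 (without busulfan 1) to 0.18 (without busulfan 2), Sqle from -0.39 to 0.073 and Cyp51 from -0.43 to 0.16 over the same pair, Fdft1 from -0.0054 (without busulfan 1) to 0.57 (without busulfan 2) and Sc5d from -0.52 to 0.61 likewise. Sc5d was at -0.31 without Cus-1 library 2 and Srebf2 at 0.061 without Cus-1 library 1. Sc5d was at -0.027 under quantile and -0.0001 under median-of-ratios scaling. No paired analysis was possible because the labels give the groups no shared replicate numbers. Depth limits Abcg1 most, at about 1 FPKM in the Cus-1 libraries.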
